A study of Mus musculus with 6 samples.

Results

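The mitochondrial calcium uniporter complex is described here through 6 genes, chosen by symbol: Mcu, Mcub, Micu2, Smdt1, Mcur1 and Letm1. They are 6 of the 16665 genes measured, and all 6 passed the filter on low values (a mean of at least 1 FPKM over the 6 libraries). The set was picked because Smdt1 separated the groups, so its difference between them is a description with no test. The other 5 genes come from the same contrast and are treated likewise. The cells were RAW264.7, an established line of mouse monocyte and macrophage leukaemia cells grown in serum-containing medium. One group was transfected with a miR-125b mimic and is labelled as overexpressing that microRNA (3 libraries). The other was transfected with a negative control, labelled NC, and is labelled wild type for miR-125b (3 libraries). RNA came from the whole culture, and FPKM (fragments per kilobase of exon, scaled to library depth) was the unit. The sources used here give neither the dose of the mimic nor the time after transfection, and do not describe the control further. Whether the libraries of a group stem from different cultures is not labelled, and their spread may be technical.

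The uniporter is the channel of the inner mitochondrial membrane through which calcium enters the matrix, driven by the membrane potential. MCU forms the pore, MCUB is a related subunit that lowers its conductance, and MICU2 is one of the proteins that sense calcium on the outer side and gate it. SMDT1, also called EMRE, is a small single-pass protein that animal pores need in order to conduct. MCUR1 is a scaffold factor for the complex, and LETM1 is an inner membrane protein of cation and proton exchange. In macrophages, calcium taken up this way feeds the dehydrogenases of the matrix and bears on inflammatory activation.

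Depth recovered from the steps of the low values lay between 14.45 M and 16.81 M fragments per library. Negative control 3 stood apart: its mean absolute log2 difference over tested genes was 0.448 to negative control 1 and 0.436 to negative control 2, while those 2 differed from each other by 0.124. It had 13266 genes above 0, the fewest, and in 65.7% of tested genes it was closer to the mimic mean than to its fellow controls. Its nearest library was mimic 3, at 0.283. Mimic 3 in turn differed by 0.252 from mimic 1 and by 0.261 from mimic 2, which differed from each other by 0.143. Values without negative control 3 are given beside the members. They are also given beside the calcium list genes named for their smallest p, where they change a call or move by over 1.5 times. That library was singled out by its own values, and leaving it out narrows the spread of the controls. The p-values of that fit may therefore be too small, and a gene that passed in it is a description only. Of 8 macrophage markers 7 passed the filter, with a summed level of 6990 to 8440 FPKM in controls and 6240 to 6480 FPKM with the mimic, most of it from the lysozyme gene Lyz2; their part in the results was not tested. The markers did not move together. Csf1r read 116 ± 7.74 and 116 ± 13.1 FPKM in controls and mimics (SD, n = 3). Ptprc read 21.2 ± 4.41 and 28.1 ± 1.29 FPKM, higher with the mimic without overlap. Lyz2 read 7310 ± 701 and 5890 ± 151 FPKM, lower with the mimic without overlap. Cd68, Itgam, Fcgr3 and Adgre1 read lower on average, with overlapping groups. In Cd68 (444, 419 and 298 against 310, 284 and 324 FPKM) only negative control 3 overlapped the mimics. The same held for Fcgr3 (8.38, 8.29 and 3.64 against 4.43, 4.72 and 3.82 FPKM). Mrc1 lay near 0. Of the markers of T cells, B cells, fibroblasts, epithelium and endothelium 0 passed the filter, and no list's sum exceeded 0.484 FPKM in any library.

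Smdt1 (ENSMUSG00000022452; GRCm38 chromosome 15, 82338959 to 82349091, plus strand) gave the widest separation of the 6 genes. It read 31.0, 31.6 and 27.2 FPKM in negative controls 1, 2 and 3. With the mimic it read 17.7, 17.3 and 20 FPKM. All 3 mimic libraries lay below all 3 controls, with a gap between mimic 3 and negative control 3, the nearest pair. The means were 29.9 ± 2.39 and 18.3 ± 1.46 FPKM (SD, n = 3), a ratio of 0.612, and the log2 fold change on the log2(FPKM + 1) scale was −0.68 (SE 0.12). RNA of a whole culture cannot tell fewer cells of a kind from less RNA per cell. Negative control 3 sided with the other controls here, and the difference was −0.74 (SE 0.088) without it. A fold change at or below that of Smdt1 was seen in 91 of 10166 tested genes (0.895%).

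**Figure D1:**
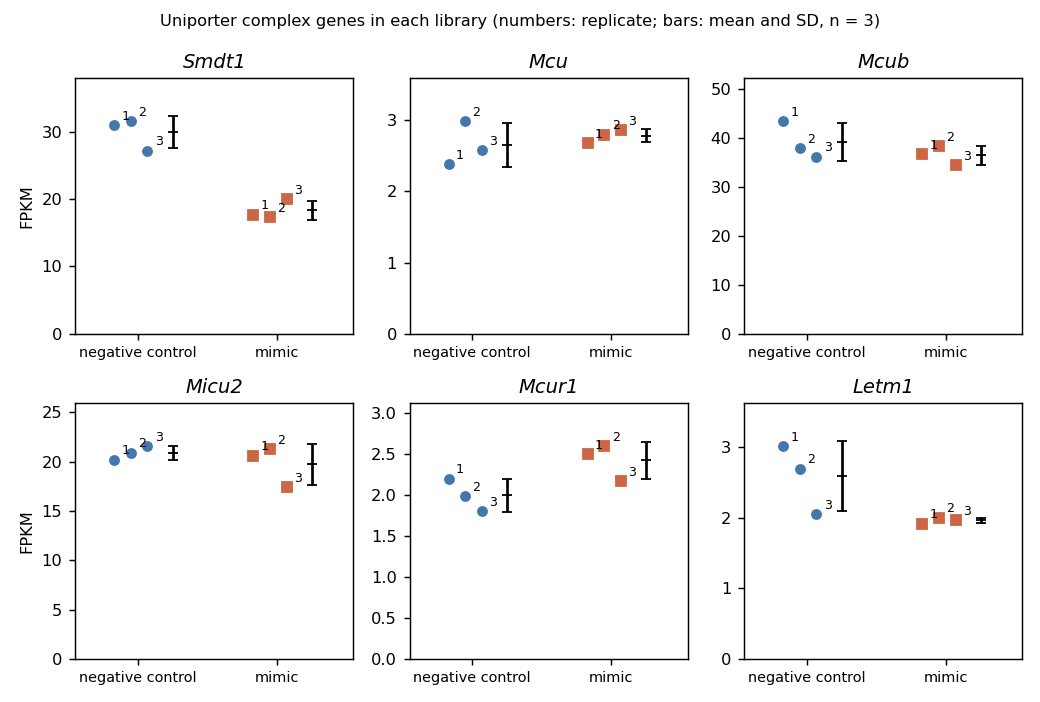
FPKM of each of the 6 genes (vertical axes, each from 0) in the 3 negative control libraries (circles) and the 3 mimic libraries (squares), numbered by replicate, with the mean and SD of each group. Smdt1 reads 27.2 to 31.6 in controls and 17.3 to 20 with the mimic, while the groups of Mcu, Mcub, Micu2 and Mcur1 overlap.

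The pore genes showed no such separation. Mcu (ENSMUSG00000009647; chromosome 10, 59446984 to 59616692, minus strand) read 2.38, 2.99 and 2.58 FPKM in controls and 2.68, 2.80 and 2.86 FPKM with the mimic. The mimic values lay inside the range of the controls, and the log2 fold change was 0.054 (SE 0.13) and 0.042 (SE 0.12) without negative control 3, turning to −0.042 with array weights and −0.015 under quantile normalisation. Mcub (ENSMUSG00000027994; chromosome 3, 129914960 to 129970206, minus strand) read 43.4, 37.8 and 36.1 FPKM in controls. With the mimic it read 36.6, 38.3 and 34.4 FPKM. Negative control 1 was the high library, and the others of both groups overlapped. Its log2 fold change was −0.098 (SE 0.11), and −0.15 (SE 0.091) without negative control 3. The sign turned to 0.055 (SE 0.10) once the trend on transcript length and GC was removed.

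The gatekeeper Micu2 (ENSMUSG00000021973; chromosome 14, 57916261 to 57999262, minus strand) was the steadiest gene among controls, at 20.2, 20.9 and 21.6 FPKM. With the mimic it read 20.6, 21.3 and 17.4 FPKM. Only mimic 3 lay below the controls. The log2 fold change was −0.081 (SE 0.12), 0.0040 (SE 0.10) without mimic 3 and −0.059 (SE 0.10) without negative control 3.

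The scaffold gene Mcur1 (ENSMUSG00000021371; chromosome 13, 43538393 to 43560191, minus strand) read 2.20, 1.99 and 1.80 FPKM in controls and 2.50, 2.60 and 2.17 FPKM with the mimic. Mimic 3 lay just under negative control 1, so the groups touched. The log2 fold change was 0.19 (SE 0.14), 0.14 (SE 0.12) without negative control 3, and 0.089 (SE 0.11) after removal of the length and GC trend. Under that removal, and under median-of-ratios scaling and quantile normalisation, the 3 mimic values all lay above the controls.

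Letm1 (ENSMUSG00000005299; chromosome 5, 33739673 to 33782817, minus strand) read 3.02, 2.70 and 2.05 FPKM in controls. With the mimic it read 1.92, 2.00 and 1.97 FPKM, a tight set with an SD of 0.0382. The groups did not overlap, but negative control 3 lay almost at the level of the mimics. The log2 fold change was −0.27 (SE 0.15), and −0.38 (SE 0.12) without negative control 3. With the trend removed negative control 3 came to 2.57 FPKM, among the other controls at 2.69 and 2.49, and the mimics read 1.83, 2.01 and 2.02 FPKM (−0.28, SE 0.11).

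By limma 0 of 10166 tested genes (0%) passed an adjusted p of 0.05, the 6 genes included, and 0 passed by limma voom on recovered fragments. Unadjusted, p was under 0.05 for 1344 genes by limma (13.2%) and for 1390 by voom. Groups that did not overlap were seen in 2 of the 6 genes, both lower with the mimic, and in 20.1% of all tested genes (7.49% lower and 12.6% higher). Since Smdt1 was picked for this property, nothing is read from that count. It was 4 of 6 under median-of-ratios scaling, where Mcub joined the lower side and Mcur1 was higher. The share of all tested genes under that scaling is not given here, so nothing is read from this count either.

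Transcript length went with the fold change across the whole table, and the 6 genes differ widely in it. Smdt1 has a coding sequence of 321 bases and a coding transcript of 705 bases, the shortest of the set; that of Letm1, the longest, has 5272 bases. Genes with a longest transcript of 500 to 1000 bases had a median log2 fold change of −0.17 over 605 genes, against 0.16 over the 3551 genes above 4000 bases. The longest transcript of Smdt1 is not given here, and its coding transcript places it at 500 to 1000 bases. In that bin 4.79% of genes lay at or below the fold change of Smdt1. In the bin of 1000 to 2000 bases the share was 1.77%. Letm1 read lower than the middle 50% of its own bin (0.022 to 0.28). With the trend on length and GC removed from each library, Smdt1 read 27.1, 27.4 and 30.2 in controls and 18.8, 18.2 and 21.3 with the mimic, on the FPKM scale. The groups stayed apart, at a log2 fold change of −0.52 (SE 0.098), and −0.47 (SE 0.087) without negative control 3 as well. Non-overlapping groups were seen in 15.7% of all genes after this removal (7.77% lower and 7.95% higher).

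**Figure D2:**
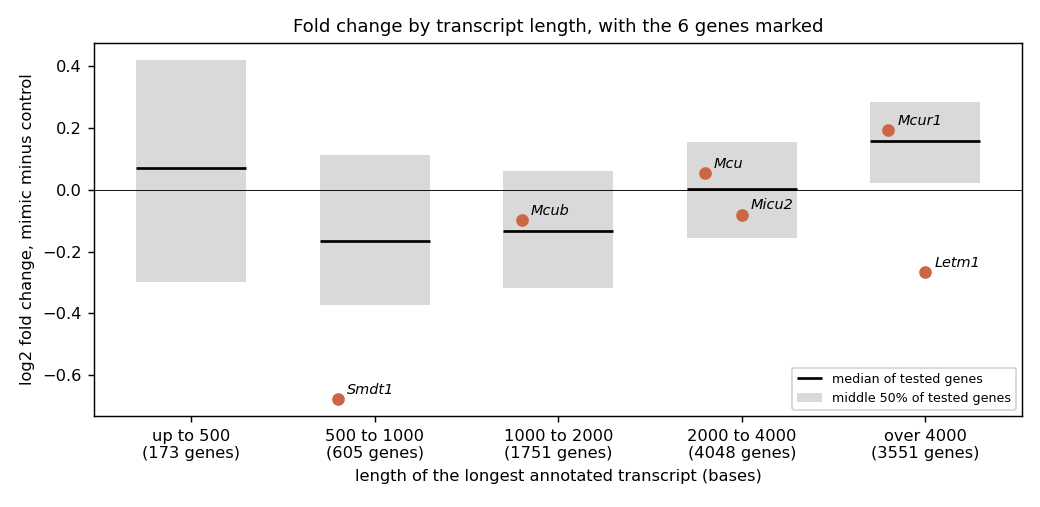
Log2 fold change of mimic against control (vertical axis) by length of the longest annotated transcript (horizontal axis, 5 bins). Grey bars hold the middle 50% of tested genes and black lines are medians. Points are the 6 genes, placed by the length of their coding transcript and not of their longest one. So placed, Smdt1 at −0.68 lies below the bar of its bin and Letm1 at −0.27 below that of the longest transcripts. The other 4 lie within theirs.

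**Figure D3:**
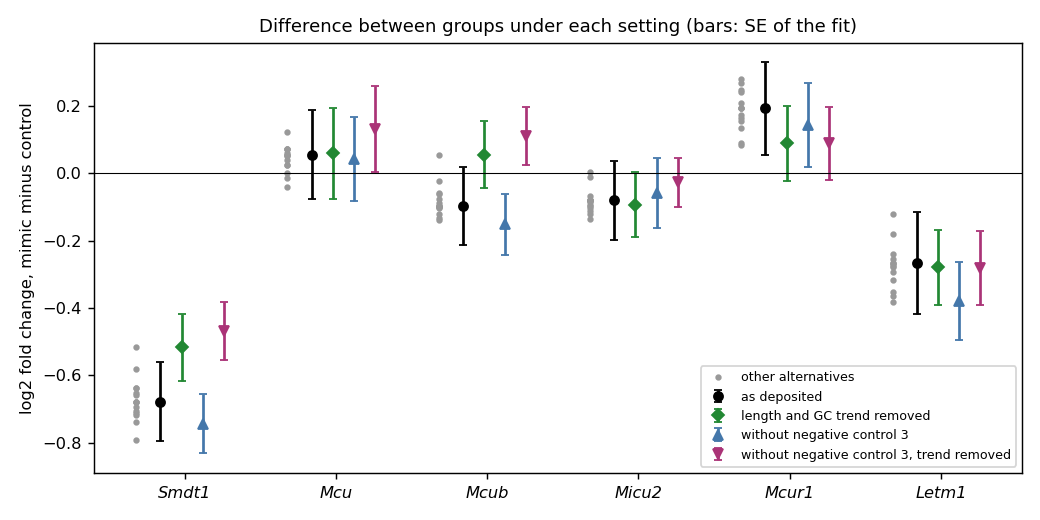
Log2 fold change of each gene (vertical axis) as deposited, with the length and GC trend removed, without negative control 3 and with both, with SE bars; grey points are the other alternatives. Smdt1 lies between −0.79 and −0.47 under every setting shown, Letm1 between −0.38 and −0.12, and Mcu, Mcub and Micu2 have points on both sides of 0.

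The order of the levels depended on the length used. Per kilobase of all annotated exon bases, as deposited, the order in controls was Mcub (39.1 ± 3.81 FPKM), Smdt1 (29.9 ± 2.39), Micu2 (20.9 ± 0.676), Mcu (2.65 ± 0.314), Letm1 (2.59 ± 0.493) and Mcur1 (2.00 ± 0.203) (SD, n = 3). The first 3 were apart by more than their spread in controls, while Letm1 overlapped both Mcu and Mcur1. With the mimic Smdt1 (17.3 to 20 FPKM) and Micu2 (17.4 to 21.3) overlapped, and Mcu (2.68 to 2.86), Mcur1 (2.17 to 2.60) and Letm1 (1.92 to 2.00) followed without overlap. The exon bases of Mcu come to 6936 and those of its coding transcript to 2872, because other annotated forms add exon bases; for Smdt1 the figures are 1479 and 705, and for Mcub both are 1318.

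Per kilobase of the coding transcript, Smdt1 stood first in controls at 62.8 ± 5.00 FPKM, above Mcub at 39.1 ± 3.81 (SD, n = 3). With the mimic Smdt1 (36.2 to 41.9 FPKM) and Mcub (34.4 to 38.2) overlapped. Micu2 read 27.6 ± 0.895 and 26.2 ± 2.78, and Mcu 6.40 ± 0.759 and 6.71 ± 0.212 FPKM on this scale in controls and mimics. The ratio of the group means of a gene is the same on both scales, since only its length changes. Differences in FPKM or in log2(FPKM + 1) are not the same. Between 187 and 1092 fragments lay behind each value of the 6 genes. For Smdt1 they numbered 379 to 787, and counting error alone comes to 5.14% at the lowest; fragments are not independent molecules, so this covers counting error only.

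**Figure D4:**
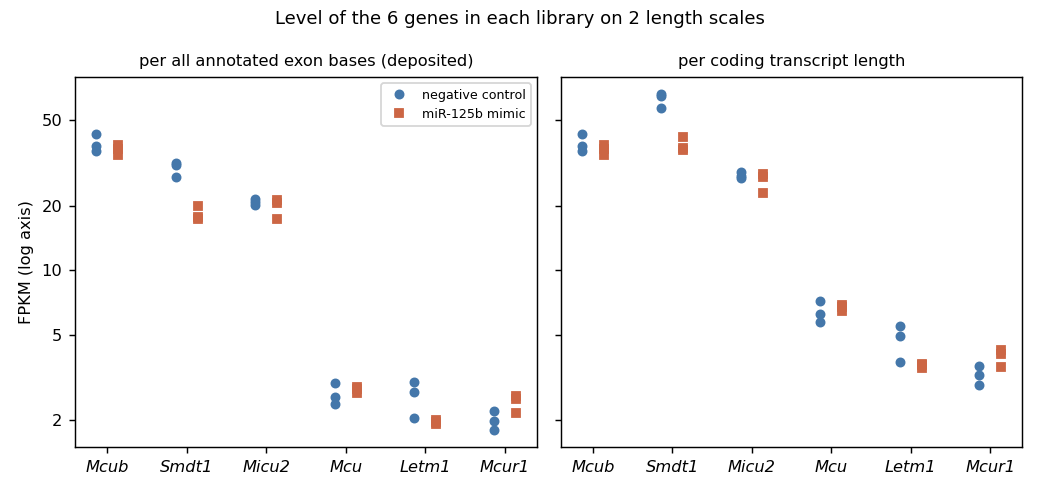
FPKM (log axis) of the 6 genes in each control library (circles) and mimic library (squares), per all annotated exon bases as deposited (left) and per coding transcript length (right). In controls Mcub leads on the left and Smdt1 on the right, at 57.1 to 66.4, and Mcu, Letm1 and Mcur1 are the lowest on both.

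Ratios within a library remove its depth. Smdt1 over Mcu, on deposited FPKM, was 13, 10.6 and 10.6 in controls and 6.61, 6.18 and 7 with the mimic. Smdt1 over Micu2 was 1.53, 1.52 and 1.26 in controls and 0.863, 0.810 and 1.15 with the mimic. Both ratios separated the groups, as the level of Smdt1 alone did, and carry the same choice of gene. Mcub over Mcu, the balance of the 2 pore subunits, was 18.3, 12.6 and 14 in controls and 13.6, 13.7 and 12 with the mimic, and the groups overlapped. Mcub read above Mcu per length in every library, at a mean ratio of 15 ± 2.94 for controls and 13.1 ± 0.937 for mimics (SD, n = 3). Per coding transcript length the mean ratios were 6.20 and 5.43. Mcur1 over Letm1 was 0.730, 0.738 and 0.876 in controls and 1.30, 1.30 and 1.10 with the mimic, and did not overlap. It sets a gene that read higher over a gene that read lower and did not overlap by itself. The share of all gene pairs that separate is not given here, so nothing is read from this ratio.

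Sites for the microRNA were looked for in the 3′ untranslated regions, where microRNAs mostly pair with their targets through the seed. The labels do not say which arm the mimic holds. The mature 5p arm is shown with its seed, bases 2 to 8, in capitals, from RefSeq on GRCm38.p6 (Mir125b-1, chromosome 9, 41581940 to 41581961, plus strand), and the copy from Mir125b-2 on chromosome 16 is identical.
miR-125b-5p: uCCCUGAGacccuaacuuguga

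In the longest annotated 3′ untranslated region of each gene (GENCODE M21) the transcript strand was searched for the 8mer CTCAGGGA, for the 7mer-m8 site, which is CTCAGGG, and for the 7mer-A1 site, TCAGGGA. Those of Smdt1 (251 bases), Mcub (245 bases), Mcu (1797 bases) and Mcur1 (3281 bases) hold none of them, nor the shorter 6mer TCAGGG. Micu2 holds 1 7mer-A1 site at base 404 of 1007, and Letm1 holds 1 6mer at base 1829 of 2790. A 7mer or 8mer was found in 22.2% of 9312 tested genes with such a region, and a site of any of the 4 kinds in 35.8%. The median length of the region in those genes was 1150 bases. Those of Smdt1 and Mcub are far shorter, so these shares are no like background for them. The 2 windows are shown 5′ to 3′ with the matched bases in capitals, from the minus strand of GRCm38 at chr14:57916847-57916876 for Micu2 and chr5:33740617-33740646 for Letm1. A match is a description of the letters and not of binding.
Micu2 7mer-A1: gggctaaacaagTCAGGGAaggaacttcat
Letm1 6mer: aactgacctgggTCAGGGttagaaatagca

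At the Smdt1 locus the gene Ndufa6 did not show its separation. Ndufa6, a complex I subunit gene on the opposite strand at 82350140 to 82354322, read 34.5, 42.6 and 35.5 FPKM in controls and 32.9, 35.3 and 32.3 FPKM with the mimic (log2 fold change −0.15, SE 0.12). Its groups overlapped. The annotation of Smdt1 shares 245 of its 1479 exon bases with Pheta2 on the same strand; Pheta2 was not analysed here, and the sources used here do not say how fragments in these bases were assigned, so the value of Smdt1 is uncertain to that extent.

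Genes with the profile most like that of Smdt1 over the 6 libraries came from several families. Likeness was the root mean square difference of log2(FPKM + 1) values, each gene centred on its own mean. The nearest 5 named genes were the ribosomal protein gene Rpl8 (0.051), the alanine aminotransferase gene Gpt (0.065), the glucosidase II beta subunit gene Prkcsh (0.080), the membrane protein gene Igsf8 (0.086) and Tmub1 (0.087). Gpt read low, at 1.81, 2.04 and 1.6 FPKM in controls and 0.73, 0.492 and 0.84 FPKM with the mimic. The 1 added before the logarithm shrinks the difference of so low a gene, so its likeness is uncertain. Rpl8 read 905, 978 and 808 FPKM in controls and 544, 525 and 660 FPKM with the mimic. Like Smdt1, it was highest in negative control 2, and highest among the mimics in mimic 3; it has processed pseudogenes and is uncertain. Of the uniporter genes Letm1 was the nearest to Smdt1, at 0.22 and rank 488 of the tested genes, and Mcur1 the farthest, at 0.45. This measure uses the same group difference and is a description of 6 libraries.

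The wider calcium pathway was read from 6 lists of 67 genes, of which 65 were tested and Letm2 and Slc8a1 lay under the filter. By limma 0 of the 65 passed, and voom also passed 0. Unadjusted, p was under 0.05 for 7 of them (10.8%, against 13.2% of all tested genes), of which 2 read higher (7.96% of all) and 5 lower (5.26% of all). Groups did not overlap in 9 of the 65 (13.8%, against 20.1%). The median log2 fold change was −0.015, and that of all tested genes 0.041. Without negative control 3, 16 of the 65 passed (24.6%), 8 in each direction, against 23.7% of all tested genes (11.6% higher and 12.2% lower). After removal of the length and GC trend as well 1 passed (1.54%, against 3.01% of all genes in that fit), the outer membrane channel gene Vdac3 (−0.46, SE 0.072, limma adjusted p = 0.0341), named after its value was seen. As deposited Vdac3 stood at −0.016 (SE 0.11), with overlapping groups, and with the trend removed over all 6 libraries it stood at −0.29 and did not pass, so its call needs both changes. The share of called genes in these lists thus lay near that of the whole table.

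**Figure D5:**
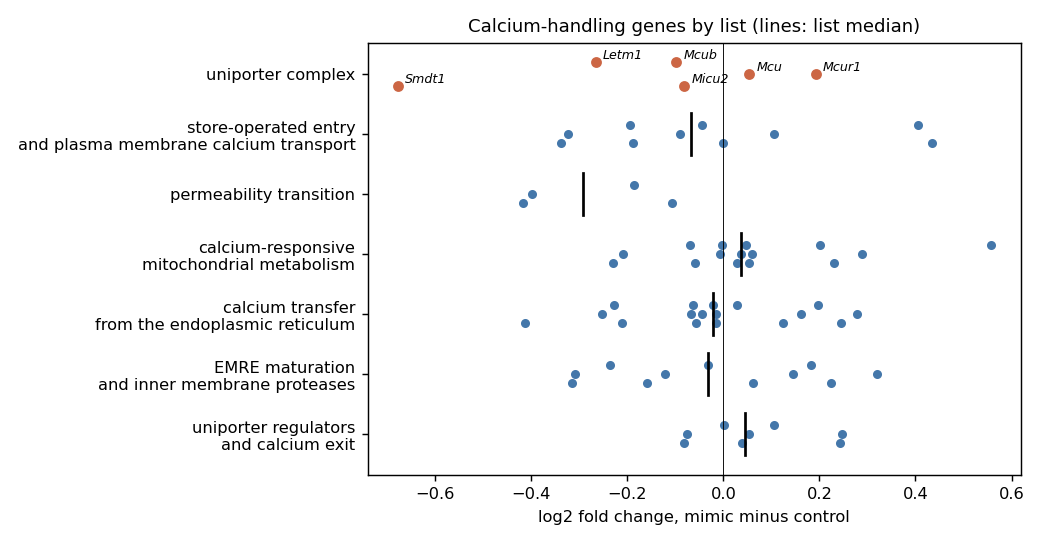
Log2 fold change of mimic against control (horizontal axis) of the 65 tested genes in 6 calcium-handling lists, with black lines at the list medians, and of the 6 uniporter genes in the top row. List medians lie between −0.29 and 0.045, and no gene of the lists reads as low as Smdt1 at −0.68; the lowest is at −0.42.

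Other regulators of the uniporter and the calcium exit route gave no separated groups. Among the 8 tested, 6 read higher and 2 lower, the median log2 fold change being 0.045. Groups did not overlap in 0 of them (0%, against 20.1% of all tested genes). Micu3, a gatekeeper best known from neurons, read 4.71, 5.08 and 9.70 FPKM in controls and 6.37, 7.69 and 8.61 FPKM with the mimic (0.24, SE 0.25). Its highest value was in negative control 3, as was that of Tmem65, a regulator of mitochondrial calcium export (3.23, 3.08 and 6.63 against 4.49, 5.22 and 5.47 FPKM). Without that library both passed (Micu3 0.53, limma adjusted p = 0.0322, and Tmem65 0.54, limma adjusted p = 0.0207). They were 2 of the 8 (25%, against 23.7% of all tested genes). After removal of the trend over all 6 libraries they stood at 0.0050 and 0.11. Letmd1 stood at −0.082 (SE 0.17), −0.21 without negative control 3 and 0.014 with the trend removed.

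Genes for the maturation and turnover of SMDT1 and its neighbours in the inner membrane were mixed. Precursor SMDT1 is handled by MAIP1 and the m-AAA protease of AFG3L2 and SPG7. Of 11 tested, 5 were higher and 6 lower (median −0.032), and 0 separated the groups (0%, against 20.1% of all tested genes). Spg7 read 14.2, 10.9 and 16.8 FPKM in controls and 9.67, 10.1 and 13.2 FPKM with the mimic (−0.32, SE 0.19, and −0.18 without negative control 3). The prohibitin gene Phb2 stood at −0.31 (SE 0.14), and −0.44 without negative control 3 (limma adjusted p = 0.0140) and −0.18 with the trend removed. The protease genes Oma1 and Yme1l1 stood at 0.32 (SE 0.16) and 0.22 (SE 0.13); without negative control 3 Yme1l1 passed at 0.32 (limma adjusted p = 0.0433). Yme1l1 came to −0.084 after removal of the trend. Of the 11 genes 2 passed without negative control 3 (18.2%, against 23.7% of all tested genes).

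Calcium reaches the mitochondrion from the endoplasmic reticulum through IP3 receptors, voltage-dependent anion channels and tethers between the membranes. Of 17 such genes 6 were higher and 11 lower (median −0.022), and the groups of 2 did not overlap (11.8%, against 20.1% of all tested genes), both higher. One was the IP3 receptor gene Itpr1, at 3.30, 2.93 and 2.94 FPKM in controls and 3.77, 3.69 and 3.47 FPKM with the mimic (0.20, SE 0.12, and 0.014 with the trend removed). The other, named after its value was seen, was the pump gene Atp2a2 at 0.13 (SE 0.10), and −0.011 with the trend removed. The mitochondrial fission adaptor gene Fis1 stood at −0.41 (SE 0.16), and the mitophagy receptor gene Fundc1 at 0.28 (SE 0.19). Atp2a3, which like Atp2a2 encodes a pump that refills the reticulum, stood at −0.21 (SE 0.14), and −0.13 with the trend removed. Without negative control 3, Fis1 passed at −0.55 (limma adjusted p = 0.0183) and Fundc1 at 0.48 (limma adjusted p = 0.0282). With the trend removed over all 6 libraries they stood at −0.21 and 0.12. Of the 17 genes 2 passed without negative control 3 (11.8%, against 23.7% of all tested genes).

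In the matrix, calcium activates the pyruvate dehydrogenase phosphatase and dehydrogenases of the citric acid cycle. Of 15 genes 9 were higher and 6 lower (median 0.036), and the groups of 2 did not overlap (13.3%, against 20.1% of all tested genes), both higher. Pdpr, the regulatory subunit of that phosphatase, read 5.04, 6.15 and 6.34 FPKM in controls and 8.56, 9.16 and 9.39 FPKM with the mimic. Every mimic value lay above every control, with a log2 fold change of 0.56 (SE 0.13, limma adjusted p = 0.332) and 0.44 with the trend removed. Pdhb, a subunit of the dehydrogenase itself, read 46.6, 48.4 and 56.3 against 56.4, 58.8 and 62.5 FPKM (0.23, SE 0.12). Idh3b, a subunit of isocitrate dehydrogenase, stood at −0.21 (SE 0.13) and the calcium-regulated carrier gene Slc25a25 at −0.23 (SE 0.16). These 4 of the 15 passed without negative control 3 (26.7%, against 23.7% of all tested genes): Pdpr at 0.61 (limma adjusted p = 0.0126), Pdhb at 0.31 (limma adjusted p = 0.0296), Idh3b at −0.34 (limma adjusted p = 0.0184) and Slc25a25 at −0.37 (limma adjusted p = 0.0409).

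All 4 genes linked to the permeability transition, the opening of a large pore under calcium overload, read lower on average (median −0.29, and −0.14 with the trend removed). Tspo, an outer membrane protein that binds cholesterol, read 63.5, 71.4 and 63.5 FPKM in controls and 49.0, 50.7 and 47.8 FPKM with the mimic (−0.42, SE 0.10, limma adjusted p = 0.332). Slc25a4, an ADP/ATP carrier, read 64.7, 64.7 and 58.3 FPKM in controls and 42.9, 49.6 and 49.3 FPKM with the mimic (−0.40, SE 0.11, limma adjusted p = 0.332). In both the groups did not overlap, negative control 3 included, and both passed without that library (limma adjusted p = 0.0128 for Tspo and 0.0163 for Slc25a4). Over all tested genes 7.49% were apart and lower, and 12.2% passed and were lower without that library; 4 genes are too few to read against these shares. The paralogue Slc25a5 stood at −0.19 (SE 0.15), −0.32 without negative control 3 and −0.11 with the trend removed. Ppif, the matrix cyclophilin of the pore, stood at −0.11 (SE 0.15), and 0.0050 without negative control 3, so that 3 of the 4 then read lower. The ADP/ATP carriers have processed pseudogenes and are uncertain. After removal of the trend Tspo stood at −0.16 and Slc25a4 at −0.28.

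At the plasma membrane, STIM proteins sense the calcium of the reticulum and open ORAI channels. Of 10 genes 3 were higher and 7 lower (median −0.067), and the groups of 3 did not overlap, all lower (30%, against 20.1% of all tested genes in either direction and 7.49% lower). Stim1 read 5.00, 5.56 and 4.2 FPKM in controls and 3.77, 3.46 and 3.76 FPKM with the mimic (−0.34, SE 0.14, limma adjusted p = 0.363). Saraf, which slows this entry, read 36.7, 38.9 and 29.1 FPKM in controls and 26.4, 27.4 and 28.7 FPKM with the mimic (−0.32, SE 0.13, limma adjusted p = 0.368). The remaining separated gene, named after its value was seen, was the channel gene Orai2. It stood at only −0.09 (SE 0.11), and −0.021 with the trend removed. These 10 genes are few to read against the shares of all tested genes. The calcium pump gene Atp2b1 read 20.8, 20.3 and 30.3 FPKM in controls and 31.2, 30.2 and 32.7 FPKM with the mimic (0.41, SE 0.17). The channel kinase gene Trpm7 read 13.2, 14 and 22.0 against 21.3, 22.7 and 21.9 FPKM (0.44, SE 0.19). In these last 2 genes negative control 3 lay at the level of the mimics, and with the trend removed they stood at 0.12 and 0.099. Without negative control 3, Stim1, Saraf, Atp2b1 and Trpm7 passed limma (40% of the 10, against 23.7% of all tested genes), and Orai2 did not. The limma adjusted p was 0.0299 for Stim1, 0.0113 for Saraf, 0.00632 for Atp2b1 and 0.00573 for Trpm7 (0.66).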

How the data were processed

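RNA-seq libraries of 6 RAW264.7 samples were compared, 3 per group as their titles give it. The deposited table holds FPKM values, 1 column per sample; fastp, HISAT2, DESeq2 and mm10 are named in the submitters' processing notes, with no role or version. The annotation, counter, strand setting and filter behind it are not stated in the sources used here. GENCODE M21 (GRCm38, which mm10 names) held 16582 of the 16665 identifiers; 83 were unmatched.

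The 10166 genes averaging 1 FPKM or more entered a limma fit (version 3.58.1, R 4.3.3) of log2(FPKM + 1) values, with its trend option, two-sided, Benjamini-Hochberg adjusted, threshold 0.05. Log2 fold changes are mimic minus control and understate low genes; SE is from this fit. The code was tested on simulated data. Depth was recovered as the value that makes low FPKM (up to 20 fragments) whole within 0.1 fragment, which 98.5% to 99.0% were. The length and GC trend was a spline (4 degrees of freedom each) on the longest transcript, subtracted per library.

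The members, lists, named genes and alternatives were chosen with earlier results of these data known. Named genes are the 6 members, up to 4 per list with the smallest p, the 5 most like Smdt1, its annotated neighbours and macrophage markers; 2 genes that the rule names are not reported here. Replicate numbers are shared between groups, and same-numbered libraries deviated together from their group means (correlations over genes 0.29, 0.18 and 0.34). For number 1, but not for 2 and 3, the best partner bore another number. The main fit left the numbers out, so its SE and p are unpaired. A replicate block, which pairs the samples by number, was fitted as an alternative. The labels do not say what a number shares.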

Additional observations from a re-analysis of the deposited data

How the results depend on the processing

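Smdt1 and Letm1 stayed below 0, and Mcur1 above 0, in all alternatives that could be fitted (18, 17 and 17). Mcu, Mcub and Micu2 took both signs (Mcu below 0 in 2, Micu2 below 0 in 17 and Mcub below 0 in 15). Leaving out 1 library gave −0.74 to −0.64 for Smdt1, −0.38 to −0.18 for Letm1, 0.14 to 0.25 for Mcur1, 0 to 0.12 for Mcu, −0.15 to −0.023 for Mcub and −0.14 to 0.0040 for Micu2. It gave 0 to 2412 called genes and 0 to 16 in the calcium lists, the high values being those without negative control 3 (1175 higher and 1237 lower). Without the length and GC trend Smdt1 stood at −0.52, Mcub at 0.055 and Mcur1 at 0.089; without negative control 3 as well they stood at −0.47, 0.11 and 0.088, with 305 called genes (82 higher and 223 lower) and 1 in the lists. A pseudocount of 5 took Mcur1 to 0.085. Median-of-ratios scaling gave 4 members with non-overlapping groups, a count with no share of all tested genes to set beside it. Array weights called 5276 of the 10166 tested genes (2830 higher and 2446 lower) and 30 of the 65 in the lists. Smdt1 then stood at −0.79 and Mcu at −0.042. The estimation of these weights by limma stopped before convergence, at a weight of 0.0860 for negative control 3. The cause of these shifts was not tested. With the replicate block 0 genes and 0 list genes were called, Smdt1 stood at −0.68, and no call changed; with the block and the trend removed Smdt1, Mcub and Mcur1 stood at −0.52, 0.055 and 0.089. Mcu, Mcur1 and Letm1 have no value at a minimum mean of 5 FPKM, since they lie under it. Counting error at the lowest fragment number comes to 6.11% for Letm1, whose SD over the mean was 19.0% in controls and 1.95% with the mimic.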
